A study of Mus musculus with 12 samples.

Results

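Hemidesmosomes and the epidermal basement membrane were followed through 9 genes, taken by symbol from the 21247 genes of the count table. They encode the integrin chains *Itga3*, *Itga6*, *Itgb1* and *Itgb4*, the laminin chains *Lama3*, *Lama5* and *Lamb3*, and the cytoplasmic linkers *Dst* and *Plec*. All 9 were in the table and all 9 passed the minimum for testing, with between 418 and 15815 counts in any library. RNA-seq had been performed on periocular skin (eye-skin) of ft/ft and ft/ftMyD88-/- mice, all given as 6 weeks old and on a BALB/c background, with 4 libraries in each group. Both groups carried the ft allele of filaggrin (*Flg*), which arose spontaneously and abolishes the function of this barrier protein, and the ft/ftMyD88-/- mice, from an in-house cross, were MyD88 deficient as well. WT skin (4 libraries) is not analysed here.

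The ft/ft libraries held 18941705 to 29255129 counts in all, those of ft/ftMyD88-/- 15802957 to 27037997. *Myd88* itself stood at 30.7 ± 4.74 CPM (SD, n = 4) in ft/ft and 41.2 ± 7.29 (SD, n = 4) in ft/ftMyD88-/-, so the gene counts give no check of the deletion. *Tmem79*, whose ma mutation the ft/ft line is described as lacking, was at 59.2 ± 2.92 and 16.4 ± 2.10 CPM (edgeR adjusted p = 5.08e-07). The series describes female mice, but *Xist* was at 0.0429 CPM or 0 in the libraries labelled ft/ft and at 49.8, 46.3, 66.8 and 34.6 in those labelled ft/ftMyD88-/-. The Y-linked *Ddx3y* was at 73.2, 54.2, 61.1 and 71.5 in ft/ft and at most 0.482 in ft/ftMyD88-/-. Sex and genotype therefore cannot be told apart in any comparison given here.

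Basal keratinocytes rest on the basement membrane through a row of adhesion complexes. In the hemidesmosome, integrin alpha6 beta4 binds laminin-332 outside the cell, and the plakins BPAG1e (from *Dst*) and plectin (from *Plec*) tie it to keratins 5 and 14 inside, together with the transmembrane collagen XVII and the tetraspanin CD151. Integrin alpha3 beta1 binds the same laminin but joins the actin cytoskeleton, and laminin-511, whose alpha chain comes from *Lama5*, is the other main laminin under the epidermis. Inherited loss of *LAMB3*, *ITGB4*, *COL17A1* or *PLEC* causes blistering of human skin.

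The genes of this adhesion system did not move as one. *Lamb3*, *Dst*, *Itgb4* and *Itga6* were lower in ft/ftMyD88-/- periocular skin, *Lama5* was higher, and *Itga3*, *Itgb1*, *Lama3* and *Plec* did not pass the test. Lower calls therefore numbered 4 of 9, where 12.3% of the 20454 tested genes were called lower, and higher calls 1 of 9, where 10.9% were called higher (edgeR's quasi-likelihood test, Benjamini-Hochberg adjusted p under 0.05 over all tested genes). The libraries of one group lay entirely on one side of the other group in 5 of the 9 genes and in 26.7% of all tested genes. These were the same 5 genes that were called, so the separation adds little to the calls. The median log2 fold change was -0.33 over the 9 genes and 0.01 over all tested genes. Values are CPM, a gene's counts relative to its library's total, scaled by edgeR's TMM method, which brings libraries to a common size. Log2 fold changes are ft/ftMyD88-/- over ft/ft, each with its standard error after the ± sign. These are whole biopsies, so fewer cells of a type and less RNA per cell cannot be told apart. The paper reports spontaneous inflammation of periocular skin in all ft/ftMyD88-/- mice by the age sampled, with a thicker epidermis than in ft/ft. In ft/ft mice it reports no inflammation that could be seen. Inflamed skin therefore goes with genotype in this comparison, and the part of inflammation in the results was not tested.

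**Figure D1:**
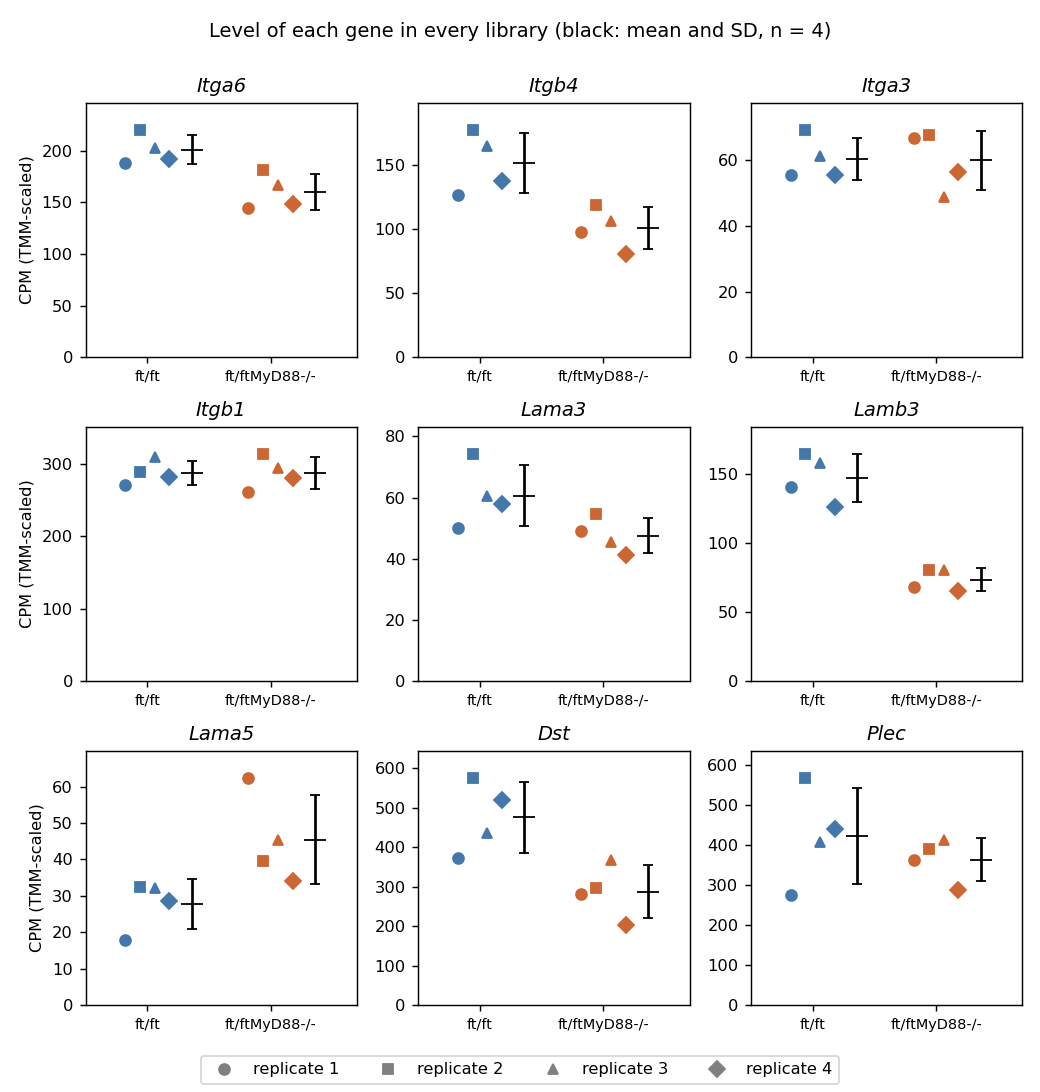
CPM (vertical axis, TMM-scaled, starting at 0) of the 9 genes in the 4 ft/ft and 4 ft/ftMyD88-/- libraries, with symbols for replicates 1 to 4 and black bars for the mean and SD. The groups separate for *Itga6*, *Itgb4*, *Lamb3*, *Lama5* and *Dst* and overlap for *Itga3*, *Itgb1*, *Lama3* and *Plec*.

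Listed starts of *Lamb3*, *Dst* and *Lama5* are shown because these genes had the largest falls and the only rise. The *Lamb3* and *Dst* windows lie inside the gene spans given below, which begin at 193294353 and 33907888. The *Lama5* window overlaps the end of its span, at 180225904. These windows are therefore not all the sequence before the whole gene. For *Dst*, both listed starts are given, since the downstream one lies beside the first exon of the shorter transcripts to which the epithelial form belongs. Each line holds the 250 bases before a start in RefSeq's promoter table on GRCm38.p6, 5′ to 3′ along the gene, with capitals for matches to the GC box (GGGCGG or, on the other strand, CCGCCC), the motif bound by Sp1-type factors.
Lamb3, chr1:193301744-193301993, plus strand: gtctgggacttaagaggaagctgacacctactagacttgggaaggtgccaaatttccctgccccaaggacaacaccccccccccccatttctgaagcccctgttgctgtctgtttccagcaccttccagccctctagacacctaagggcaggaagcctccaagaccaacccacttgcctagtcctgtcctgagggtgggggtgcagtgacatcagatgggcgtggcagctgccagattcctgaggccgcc
Dst, chr1:34011345-34011594, plus strand: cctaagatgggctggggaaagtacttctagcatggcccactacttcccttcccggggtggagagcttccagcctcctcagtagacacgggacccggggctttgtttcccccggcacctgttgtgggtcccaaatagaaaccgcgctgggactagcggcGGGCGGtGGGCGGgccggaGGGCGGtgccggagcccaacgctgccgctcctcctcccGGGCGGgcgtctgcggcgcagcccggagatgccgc
Dst (downstream start), chr1:34160010-34160259, plus strand: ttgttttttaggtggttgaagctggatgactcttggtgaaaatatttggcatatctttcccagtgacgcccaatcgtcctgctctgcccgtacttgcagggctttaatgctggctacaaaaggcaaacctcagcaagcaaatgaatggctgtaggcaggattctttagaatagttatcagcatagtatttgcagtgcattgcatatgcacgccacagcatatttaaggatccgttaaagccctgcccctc
Lama5, chr2:180225860-180226109, minus strand: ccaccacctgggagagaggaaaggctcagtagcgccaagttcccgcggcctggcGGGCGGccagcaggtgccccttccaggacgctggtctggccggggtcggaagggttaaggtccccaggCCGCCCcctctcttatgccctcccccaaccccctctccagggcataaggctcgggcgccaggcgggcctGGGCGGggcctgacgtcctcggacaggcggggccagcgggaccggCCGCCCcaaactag

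The *Lamb3* window and the downstream *Dst* window held no GC box, while the upstream *Dst* window and that of *Lama5*, genes that moved in opposite directions, held 4 each. A GC box was present in 33.0% of the 27025 windows of the same length. The share of G and C was 58.8% in *Lamb3*, 68.8% and 45.2% in the upstream and downstream windows of *Dst*, and 72.4% in *Lama5*. The letters of AP-1 (TGANTCA, in 6.85% of all windows), STAT (TTCNNNGAA, 7.14%), C/EBP (TTGCNNAA, 9.55%), TEAD (GGAATG, 12.6%) and the TATA box (TATAAA, 13.00%), and the NF-kB motif (1.41%), searched on both strands, were in none of these 4 windows. *Lamb3* has a second listed start, not printed here, with 1 TEAD match. Starts were listed for 5 of the 9 genes, the others being *Itga3*, with 3 GC boxes at its first start, and *Itgb1*, with 1 GC box and 1 TEAD match. A match is a run of letters and not a bound site.

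Laminin-332 is the ligand of the hemidesmosome and includes the chains of *Lama3* and *Lamb3*. *Lamb3* (GRCm38.p6 chromosome 1, 193294353 to 193343878) encodes the beta3 chain, which occurs in no other common laminin. In ft/ft replicates 1 to 4 it stood at 140.1, 164, 158 and 126 CPM, in those of ft/ftMyD88-/- at 67.7, 80.04, 80.7 and 65.4. The highest ft/ftMyD88-/- library lay well under the lowest ft/ft library, and the mean went from 147 ± 17.4 to 73.5 ± 8.04 (SD, n = 4 each), 49.9% lower (log2 fold change -0.998 ± 0.109, edgeR adjusted p = 1.41e-04). This was the largest fold change of the 9 genes, and its call held with each library left out in turn.

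*Lama3* (chromosome 18, 12333417 to 12583013) encodes the alpha3 chain. Its values were 50.1, 74.2, 60.5 and 57.9 CPM in ft/ft and 48.9, 54.5, 45.6 and 41.2 in ft/ftMyD88-/-, with 1 ft/ft library below the highest ft/ftMyD88-/- library. It did not pass (log2 fold change -0.35 ± 0.124, edgeR adjusted p = 0.0588). Within a library, the log2 ratio of *Lama3* to *Lamb3* counts was -1.48, -1.15, -1.38 and -1.12 in ft/ft and -0.47, -0.55, -0.82 and -0.67 in ft/ftMyD88-/-. Ratios of this kind do not depend on how libraries are scaled. *Lama3* thus stood 1.57-fold higher relative to *Lamb3* in ft/ftMyD88-/-, without overlap between the groups (exact permutation test over libraries, p = 0.0286, 0.0429 adjusted over the 6 ratios). This ratio carries the fall of *Lamb3* given above. All 6 pairs were chosen with earlier results of these data known, which the adjustment does not cover.

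*Itgb4* and *Itga6* encode the hemidesmosomal integrin, the laminin receptor that nucleates the complex. *Itgb4* (chromosome 11, 115974725 to 116008412) measured 126, 177, 165 and 138 CPM in the ft/ft libraries, against 97.8, 119, 106 and 80.2 in ft/ftMyD88-/-. Every ft/ftMyD88-/- library was below every ft/ft library, although the closest pair, 119 and 126, lay near each other. The mean was 33.5% lower in ft/ftMyD88-/- (log2 fold change -0.59 ± 0.134, edgeR adjusted p = 0.0085), and the call held with each library left out. An antisense noncoding gene covers 7.66% of its exon length, and the strand setting of the counting is not given.

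*Itga6* (chromosome 2, 71786886 to 71858427), the alpha partner, which also pairs with beta1 in endothelium and other cells, measured 188, 220.0, 203 and 192 CPM in ft/ft, against 144, 181, 167 and 148 in ft/ftMyD88-/-. The groups did not overlap and the mean was 20.3% lower (log2 fold change -0.33 ± 0.0964, edgeR adjusted p = 0.0286). This call was less steady, since the adjusted p rose to between 0.0548 and 0.0813 without ft/ft replicate 2, 3 or 4 or without ft/ftMyD88-/- replicate 1 or 4. The log2 ratio of *Itga6* to *Itgb4* averaged 0.42 ± 0.13 in ft/ft and 0.68 ± 0.14 in ft/ftMyD88-/- (SD, n = 4 each). Those ratios overlapped, and the difference did not pass (exact permutation test over libraries, p = 0.0571, 0.0686 adjusted over the 6 ratios).

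Inside the cell, *Dst* and *Plec* encode giant plakins. *Dst* (chromosome 1, 33907888 to 34308662) gives the epithelial BPAG1e as well as longer neuronal and muscle forms, which a count per gene adds together. Its values were 372, 575, 436 and 519 CPM in ft/ft and 281, 298, 367 and 204 in ft/ftMyD88-/-, a mean 39.6% lower (log2 fold change -0.73 ± 0.180, edgeR adjusted p = 0.015). The groups did not overlap, but ft/ft replicate 1 and ft/ftMyD88-/- replicate 3 nearly touched.

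*Plec* (chromosome 15, 76170974 to 76231378), which links intermediate filaments to many adhesion sites and is abundant in muscle too, ranged from 276 to 568 CPM among ft/ft libraries alone (276, 568, 408 and 441). The ft/ftMyD88-/- libraries, at 364, 389.6, 413 and 288, lay inside that range, and the difference did not pass (log2 fold change -0.22 ± 0.195, edgeR adjusted p = 0.458). Replicate 1 was the lowest and replicate 2 the highest ft/ft library for both plakins. The ratio of *Dst* to *Plec* carries the fall of *Dst* given above. The log2 ratio of *Dst* to *Plec* counts was 0.43, 0.02, 0.10 and 0.23 in ft/ft and -0.38, -0.39, -0.17 and -0.50 in ft/ftMyD88-/-, above 0 in each ft/ft library and below 0 in each ft/ftMyD88-/- library (exact permutation test over libraries, p = 0.0286, 0.0429 adjusted over the 6 ratios).

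*Itga3* and *Itgb1* encode the integrin that binds laminin outside hemidesmosomes, and *Itgb1* also serves many other cells of the skin. *Itga3* (chromosome 11, 95044475 to 95076844) measured 55.5, 69.2, 61.5 and 55.6 CPM in ft/ft, against 66.9, 67.7, 48.96 and 56.5 in ft/ftMyD88-/- (log2 fold change -0.01 ± 0.117, edgeR adjusted p = 0.96). For *Itgb1* (chromosome 8, 128685654 to 128733579) the ft/ft libraries had 271, 288, 309 and 281 CPM and the ft/ftMyD88-/- libraries 261, 313, 293 and 281 (log2 fold change -0.00 ± 0.0881, edgeR adjusted p = 0.996). The groups interleaved in both. With both estimates this close to 0, their sign turned with the scaling, from below 0 with TMM to 0.17 and 0.18 on the log2 scale with library size alone.

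Set against the beta1 chain in the same library, *Itgb4* was lower in ft/ftMyD88-/-. Because *Itgb1* hardly differed, this ratio carries the fall of *Itgb4* given above and is not a separate result. The log2 ratio of *Itgb4* to *Itgb1* counts was -1.10, -0.70, -0.91 and -1.03 in ft/ft and -1.42, -1.40, -1.47 and -1.81 in ft/ftMyD88-/-, with no overlap (exact permutation test over libraries, p = 0.0286, 0.0429 adjusted over the 6 ratios). The alpha chains did not separate in that way, since the log2 ratio of *Itga6* to *Itga3* was 1.76, 1.67, 1.72 and 1.79 in ft/ft and 1.11, 1.42, 1.77 and 1.39 in ft/ftMyD88-/- (exact permutation test over libraries, p = 0.114, 0.114 adjusted over the 6 ratios). ft/ftMyD88-/- replicate 3 reached the ft/ft values.

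*Lama5* (chromosome 2, 180176373 to 180225904), the alpha5 chain of laminin-511, went the other way from *Lamb3*, the laminin-332 chain called lower. Its libraries had 17.9, 32.3, 32.1 and 28.6 CPM in ft/ft, against 62.4, 39.7, 45.4 and 34.2 in ft/ftMyD88-/-, a mean 63.8% higher (log2 fold change 0.71 ± 0.225, edgeR adjusted p = 0.0484). The groups did not overlap, but ft/ft replicates 2 and 3 and ft/ftMyD88-/- replicate 4 were close. This call was the weakest of the 5. It was lost in 7 of the 8 fits that left out a library, all but that without ft/ftMyD88-/- replicate 4, with adjusted p-values up to 0.0945, and the log2 fold change ran from 0.52 to 0.83. The low end came from leaving out ft/ftMyD88-/- replicate 1, the library with the highest *Lama5*.

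Neither partner chain of laminin-511 was called higher. *Lamb1*, the beta1 chain, averaged 85.1 ± 17.2 CPM in ft/ft, against 105 ± 9.90 in ft/ftMyD88-/- and without overlap (log2 fold change 0.31 ± 0.140, edgeR adjusted p = 0.134), and *Lamc1*, the gamma1 chain of most laminins, fell from 191 ± 34.2 to 142 ± 15.6 (log2 fold change -0.43 ± 0.133, edgeR adjusted p = 0.0364). The log2 ratio of *Lama5* to *Lama3* counts was -1.48, -1.20, -0.91 and -1.01 in ft/ft and 0.35, -0.46, -0.01 and -0.27 in ft/ftMyD88-/-, 2.08-fold higher in ft/ftMyD88-/- (exact permutation test over libraries, p = 0.0286, 0.0429 adjusted over the 6 ratios). With 4 libraries against 4, this p is the smallest that the exact test allows, and all 4 ratios that separated the groups had it. The ratio of *Lama5* to *Lama3* carries the rise of *Lama5* given above.

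**Figure D2:**
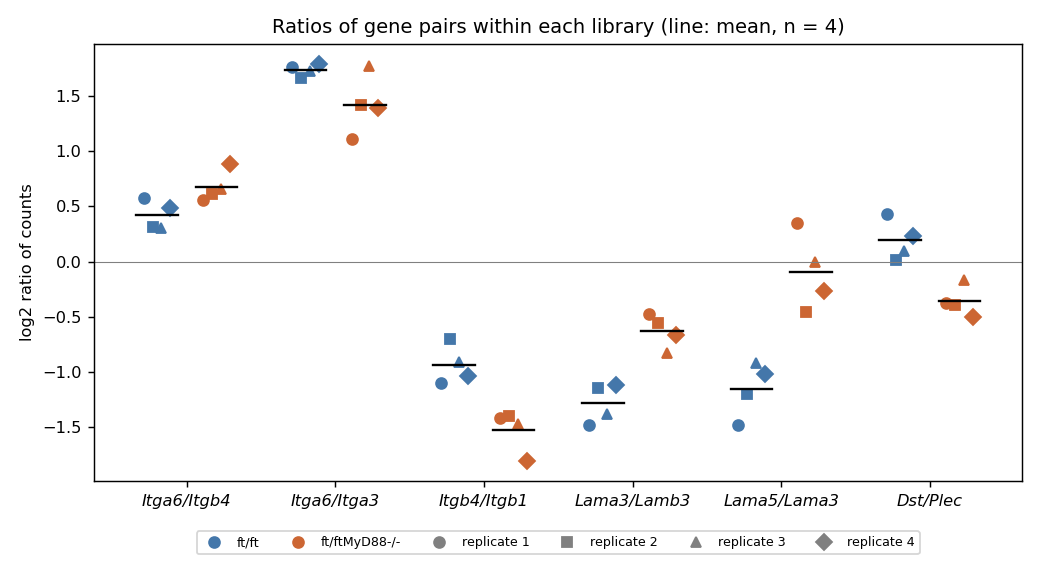
Log2 ratio of raw counts (vertical axis) for 6 gene pairs in each library, ft/ft in blue and ft/ftMyD88-/- in orange, with a line at each mean and symbols for replicates. *Itgb4*/*Itgb1*, *Lama3*/*Lamb3*, *Lama5*/*Lama3* and *Dst*/*Plec* separate the groups, while *Itga6*/*Itgb4* and *Itga6*/*Itga3* overlap.

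Levels of different genes can be compared only per length of transcript, here as CPM per kb of annotated exon. Dividing by length assumes reads spread along whole transcripts. The paper and the library labels describe the libraries differently, so this was not settled and the order below depends on it. In ft/ft skin *Itgb1* led at 70.4 ± 3.98 CPM per kb (SD, n = 4). *Plec* (23.4 ± 6.64), *Itga6* (22.3 ± 1.56), *Lamb3* (22.2 ± 2.64) and *Itgb4* (21.6 ± 3.35) followed with overlapping libraries, so their order among themselves is not resolved. *Dst* (11.6 ± 2.18) and *Itga3* (10.6 ± 1.14) came next and also overlapped. *Lama3*, at 4.66 to 6.90 CPM per kb, lay below all of these, and *Lama5*, at 1.57 to 2.84, lay below *Lama3*. In ft/ftMyD88-/- the libraries of *Lama3* (3.83 to 5.08 CPM per kb) and *Lama5* (3.00 to 5.48) overlapped, and *Lamb3* had gone to 11.1 ± 1.22. *Dst* is spread over 41.2 kb of exon from 20 transcripts and *Plec* over 18.1 kb from 22. Their counts add all forms together, so the value per kb does not give the level of any single form.

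Among the partners of the hemidesmosome, *Col17a1*, the transmembrane collagen XVII, measured 693, 916, 801 and 782 CPM in ft/ft, against 454, 467, 538 and 369 in ft/ftMyD88-/- (log2 fold change -0.80 ± 0.125, edgeR adjusted p = 0.00104). *Cd151*, the tetraspanin of laminin-binding integrins, fell from 168 ± 13.4 to 125 ± 7.39 CPM (log2 fold change -0.43 ± 0.0875, edgeR adjusted p = 0.00472). Of the basal keratins to which the plakins attach, *Krt5* fell from 4994 ± 495 to 3131 ± 189 CPM (log2 fold change -0.67 ± 0.111, edgeR adjusted p = 0.0014), while *Krt14* averaged 4718 ± 634 and 4881 ± 847 (log2 fold change 0.05 ± 0.146, edgeR adjusted p = 0.839). *Col7a1*, the collagen of the anchoring fibrils below the membrane, was at 39.5 ± 6.46 and 41.1 ± 2.51 (log2 fold change 0.06 ± 0.113, edgeR adjusted p = 0.754). Genes called lower within the complex were therefore *Itga6*, *Itgb4*, *Col17a1*, *Cd151*, *Dst*, *Krt5* and *Lamb3*, whereas *Plec*, *Krt14*, *Lama3* and *Col7a1* did not pass.

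**Figure D3:**
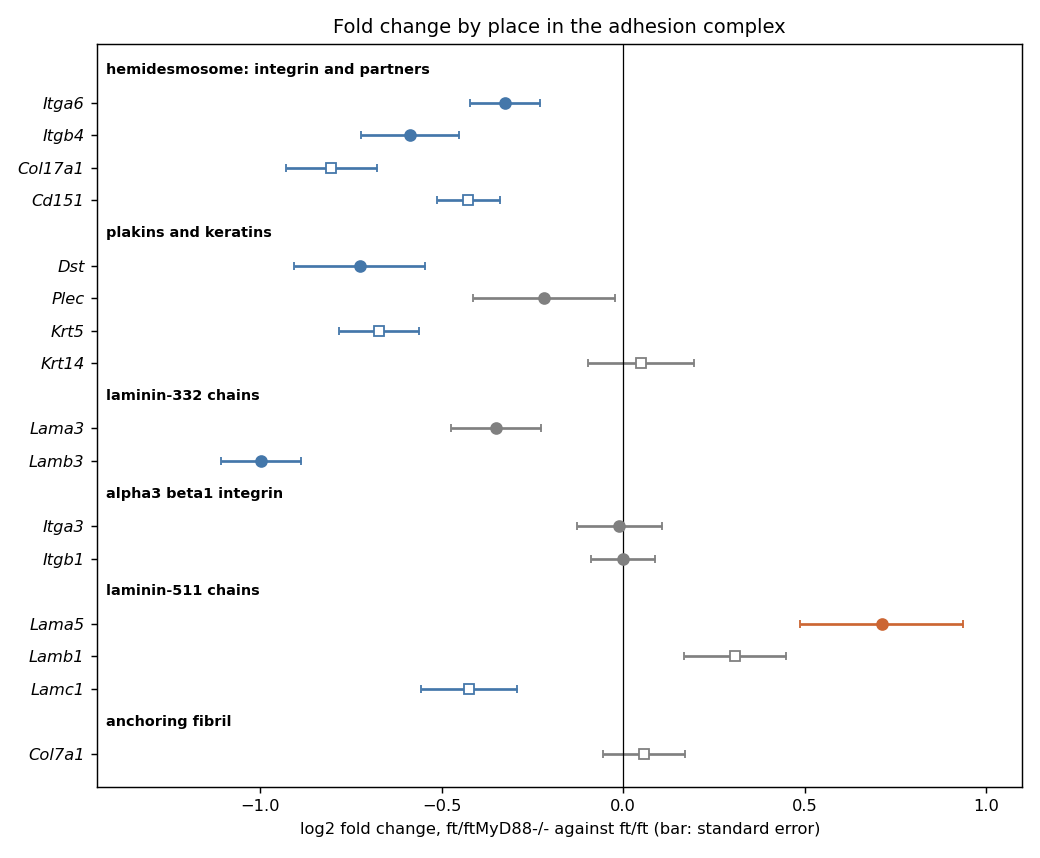
Log2 fold change (horizontal axis, ft/ftMyD88-/- against ft/ft, bars for standard errors) of the 9 genes (filled circles) and of named partners (open squares), ordered by place in the complex. Blue marks genes called lower, orange *Lama5*, called higher, and grey those that did not pass.

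A wider list of 32 genes of cell anchorage held plakins, kindlins, talins, tensins and focal adhesion adaptors. Of its 31 tested genes, 8 were lower, 0 higher and 23 not past the test (median log2 fold change -0.18). The shares over all tested genes were 12.3% lower and 10.9% higher. Beside *Col17a1*, *Cd151* and *Krt5*, those called lower were *Ppl* (log2 fold change -0.74 ± 0.143, edgeR adjusted p = 0.00349) and *Evpl*, plakins of the cornified envelope, *Fermt1*, the epidermal kindlin (-0.47), *Parvb* and *Bcar1*. With library size alone, 3 genes of the list were called higher.

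Of 39 further genes of basement membranes, 15 were called lower and 0 higher (median log2 fold change -0.35), beside 12.3% and 10.9% of all tested genes. With library size alone, 4 were called higher. The less abundant collagen IV chains were among those lower, led by *Col4a3* from 3.17 ± 1.04 to 1.16 ± 0.460 CPM (log2 fold change -1.42 ± 0.333, edgeR adjusted p = 0.00988), with *Col4a4*, *Col4a5* (-0.53) and *Col4a6* (-1.09), whereas the common chains *Col4a1* (0.31, edgeR adjusted p = 0.102) and *Col4a2* (0.18, edgeR adjusted p = 0.389) did not pass. *Frem2*, of the Fraser complex that holds epidermis to dermis, fell from 20.5 ± 2.43 to 9.41 ± 2.87 CPM (log2 fold change -1.11 ± 0.192, edgeR adjusted p = 0.00204). Receptors for laminin other than integrins were also lower, with *Bcam* at -0.61 and *Dag1*, which encodes dystroglycan, at -0.52 on the log2 scale.

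The remaining laminin alpha chains were read in the same way. *Lama2*, the chain of muscle and nerve, was at 69.2 ± 16.2 and 48.3 ± 7.99 CPM (log2 fold change -0.52 ± 0.179, edgeR adjusted p = 0.0614), *Lama4*, the chain of vessels and fat, at 77.3 ± 14.8 and 69.5 ± 9.83 (log2 fold change -0.15 ± 0.144, edgeR adjusted p = 0.483), and *Lama1* at 0.937 ± 0.276 and 1.28 ± 0.329 (log2 fold change 0.44 ± 0.286, edgeR adjusted p = 0.297). None of them passed. Of the laminin genes named here, *Lama5* alone was called higher with TMM scaling, and *Lamb2*, the beta2 chain of vessels, nerve and muscle (log2 fold change -0.80 ± 0.162, edgeR adjusted p = 0.00544), was lower beside *Lamb3* and *Lamc1*.

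Of 21 tested integrin genes outside the 9, 5 were higher and 3 lower. Among all tested genes 10.9% were called higher and 12.3% lower, so the lower calls were near that share. *Itgal*, a chain of the leukocyte integrin LFA-1, rose from 6.69 ± 1.83 to 15.97 ± 2.68 CPM (log2 fold change 1.26 ± 0.192, edgeR adjusted p = 9.46e-04), while its partner *Itgb2* was at 19.6 ± 4.81 and 24.9 ± 2.54 (log2 fold change 0.35 ± 0.159, edgeR adjusted p = 0.136). *Itga11*, a collagen receptor of fibroblasts (0.69), *Itga1*, *Itgae* and *Itgb6*, an epithelial chain that activates TGF-beta (log2 fold change 0.50 ± 0.124, edgeR adjusted p = 0.0127), were higher too. *Itga2*, the collagen receptor of basal keratinocytes, fell from 14.8 ± 0.204 to 11.1 ± 1.09 CPM (log2 fold change -0.41 ± 0.106, edgeR adjusted p = 0.0155), with *Itgav* (-0.28) and *Itgax* (-0.49) also lower. The lower calls came down to 1 without ft/ft replicate 2 or 3 or ft/ftMyD88-/- replicate 1, 3 or 4, and to 0 with library size alone, where 9 were higher, and the higher calls came down to 3 without ft/ft replicate 3.

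Markers of cells that could carry these genes moved between the groups as well. Their counts stand beside 12.3% of all tested genes called lower and 10.9% called higher. Of 15 basal keratinocyte markers, which share *Krt5*, *Krt14* and *Col17a1* with the genes above, 7 were lower and 0 higher, with a summed level of 15618 to 18560 CPM across ft/ft libraries against 10636 to 13040 across ft/ftMyD88-/-. Of 22 skeletal muscle markers, 17 were lower, with sums of 13396 to 18220 CPM across ft/ft libraries against 5166 to 9806 across ft/ftMyD88-/-, and only *Tnnc2* stayed at or under 3 counts in every library. Of 14 Schwann cell markers, 5 were lower and 1 higher (sums of 914 to 1042 CPM across ft/ft libraries against 562 to 773 across ft/ftMyD88-/-), and of 14 endothelial markers 4 were lower and 1 higher (sums of 505 to 611 CPM across ft/ft libraries against 414 to 536 across ft/ftMyD88-/-). The Schwann cell calls came down to 3 without ft/ft replicate 1 or 3 or ft/ftMyD88-/- replicate 4, and the endothelial call higher was lost without ft/ft replicate 2, 3 or 4 or ft/ftMyD88-/- replicate 2, 3 or 4. With library size alone, 0 endothelial and 2 Schwann cell markers were lower. Every basal keratinocyte, Schwann cell and endothelial marker was above 3 counts in at least 1 library. *Dst*, *Plec*, *Itgb4*, *Itga6* and *Itgb1* are known from some of these cells, and the part of these markers in the results was not tested. Removing muscle and mitochondrially encoded genes before scaling left all 9 calls as they were. That removal bears on the scaling and leaves any reads of the 9 genes from muscle in their counts, so it does not address muscle content.

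Hair follicle and dermal markers were set beside *Lama5*, where 10.9% of all tested genes were called higher and 12.3% lower. Of 18 markers of growing (anagen) hair follicles, 3 were higher, with overlapping sums of 2104 to 3057 CPM across ft/ft libraries against 2678 to 18980 across ft/ftMyD88-/-. That count was 15 without ft/ftMyD88-/- replicate 2 and 18 with DESeq2, but 1 without ft/ft replicate 1, 2, 3 or 4 or ft/ftMyD88-/- replicate 4. In ft/ftMyD88-/- replicates 1 to 4 the sums were 18980, 2678, 4157 and 10014 CPM, and *Lama5* stood at 62.4, 39.7, 45.4 and 34.2 CPM. Of 13 fibroblast markers, 3 were higher and 3 lower, with sums of 14720 to 30186 CPM across ft/ft libraries against 7880 to 11772 across ft/ftMyD88-/-. *Col3a1* made up 35.8% of that sum, and the sum did not follow the typical marker. The median log2 fold change of the 13 was 0.31, with 5 of them below 0. The higher fibroblast calls came down to 1 without ft/ft replicate 1, 2 or 4 and to 0 without ft/ftMyD88-/- replicate 4. The part of these markers in the *Lama5* result was not tested.

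The longest transcripts also moved with single libraries. The median deviation of genes with at least 10 kb of exon, less that of genes with 1 to 3 kb, was -0.18, 0.17, -0.02 and 0.07 in ft/ft replicates 1 to 4 and 0.13, -0.04, 0.09 and -0.19 in ft/ftMyD88-/- on the log2 scale. It was lowest in ft/ft replicate 1 and ft/ftMyD88-/- replicate 4, in which *Dst* and *Plec* were also the lowest of their groups. With this index as a covariate, a choice made after the values were seen, *Dst* was at -0.70 (edgeR adjusted p = 0.00136), *Lama5* at 0.74 (edgeR adjusted p = 0.00234) and *Plec* at -0.15 (edgeR adjusted p = 0.339) on the log2 scale.

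Scaling mattered to the smaller changes. With library size alone in place of TMM, the median log2 fold change of all tested genes moved from 0.01 to 0.19 and the share of calls that were higher from 47.00% to 77.8%. *Lamb3* (-0.82, edgeR adjusted p = 5.55e-04), *Itgb4* (-0.41, edgeR adjusted p = 0.049) and *Lama5* (0.89, edgeR adjusted p = 0.0199) passed there too. *Itga6* (-0.15, edgeR adjusted p = 0.294) and *Dst* (-0.55, edgeR adjusted p = 0.0568) did not.

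**Figure D4:**
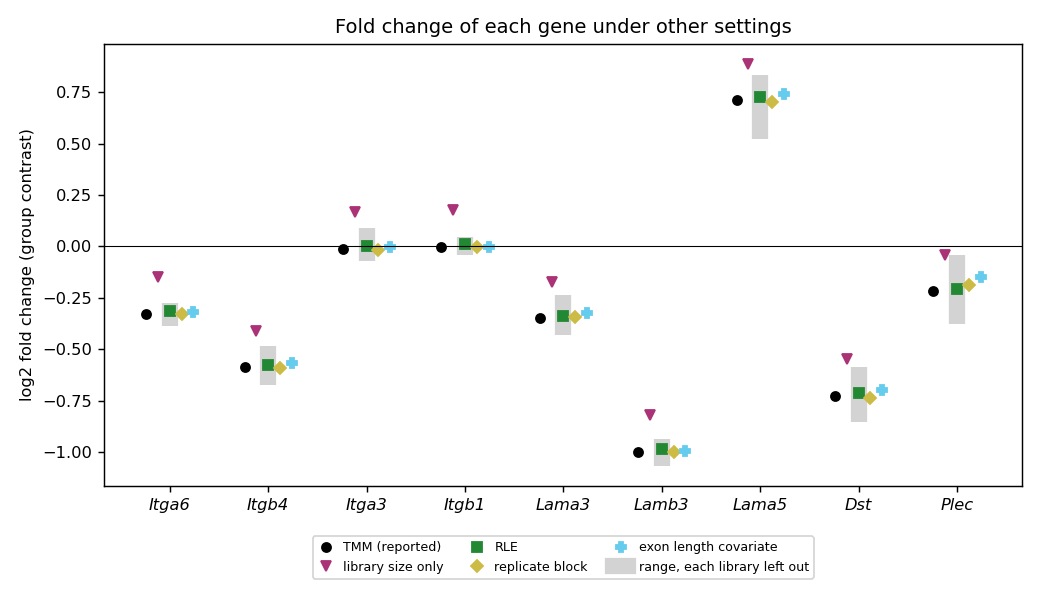
Log2 fold change (vertical axis, ft/ftMyD88-/- against ft/ft) of the 9 genes with TMM, with 4 other settings and, as a grey bar, over the 8 fits that each left out a library. *Lamb3*, *Itgb4*, *Dst* and *Itga6* stay below 0 and *Lama5* above 0 in every setting drawn, and library size alone lies above the TMM value for each gene.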

How the data were processed

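Periocular skin biopsies of 4 ft/ft and 4 ft/ftMyD88-/- mice had been sequenced as single-end reads. Per the paper, polyA-selected TruSeq libraries were aligned to GRCm38.p6 by HISAT and tophat2 before HTSeq counting at default settings, whereas the labels of these libraries name total RNA, a fixed-tissue protocol and Cell Ranger. Versions, annotation release and strand setting are not given in the sources used here. The authors deposited raw counts per gene, without normalization. Libraries were matched to columns by library name, and 0 columns went unused.

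The 9 genes, the gene lists, the ratios and the motifs were chosen with earlier results of these data known. The 20454 genes whose counts over the 8 libraries came to 10 or more were fitted in R 4.3.3 with edgeR 4.0.16 (TMM, glmQLFit with robust = TRUE, glmQLFTest, no covariate, two-sided), with Benjamini-Hochberg adjustment over all of them. Standard errors come from the log2 fold change and the F value. The biological coefficient of variation was 0.182, and at 418 or more counts per library for each of the 9 genes, counting error is small beside it. Ratios are log2 of counts plus 0.5, compared by a two-sided exact permutation test (scipy 1.17.1). The genes named are the 9, fixed partners and, per partner list, the 2 largest called increases and decreases with a mean of at least 50 counts, and other genes called in those lists, with *Lamb1*, *Lamb2*, *Col4a1* and *Col4a2*, were named after their values were seen. One fixed partner is not reported here. Marker lists covered basal, differentiated and hyperproliferative keratinocytes, proliferation, muscle, Schwann cells, endothelium, fibroblasts, sebocytes, anagen follicle, follicle bulge, leukocytes, and lacrimal and conjunctival epithelium. Gene positions and starts are RefSeq's (GRCm38.p6), and exon lengths are unions of GENCODE vM21 exons on GRCm38. In that annotation, *Itgb4*, *Lama3*, *Dst* and *Plec* share from 1.11% to 7.66% of their exon length with a neighbouring gene. No pair of libraries within a group agreed within counting noise (chi-square per degree of freedom at least 15.1), as one library deposited again would. Alternatives were limma 3.58.1 voom, DESeq2 1.42.0, other scalings and filters, a replicate block and each library left out.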

Additional observations from a re-analysis of the deposited data

How the results depend on the processing

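*Lamb3* and *Itgb4* kept their direction and their call in all 18 alternatives, *Dst* in all but library size alone, and *Itga6* and *Lama5* kept their direction in all 18. With library size alone, 4638 genes were called higher and 1326 lower, and 2 of the 9 genes were lower. The number of the 9 called higher was 0 without a filter on low counts, where *Lama5* had an edgeR adjusted p of 0.0523, and 0 with the replicate block. With each library left out, 0 to 1 of the 9 genes were called higher and 3 to 5 lower, and 1464 to 2260 of all genes were called higher, fewest without ft/ft replicate 4. Those fits rest on fewer libraries. *Itga3* and *Itgb1*, near 0, changed sign with RLE (0.00404 and 0.0120), library size (0.165 and 0.177), filterByExpr (0.000992 and 0.0103) and DESeq2 (0.00401 and 0.0122), *Itgb1* also with upper quartile scaling (0.00586), and with libraries left out they ran from -0.0694 to 0.0904 and from -0.0422 to 0.0468. *Lama3* passed with the replicate block (edgeR adjusted p = 0.0453), with the exon length index (0.0344) and without ft/ft replicate 1 (0.0268) or ft/ftMyD88-/- replicate 2 (0.0473). The cause of these changes was not tested.

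Replicate numbers 1 to 4 occur in both groups, but same-numbered libraries did not deviate together, with correlations of their deviations across genes of -0.30, 0.05, 0.08 and -0.09, so the numbers were not taken as pairs. With the number as a replicate block, 1895 genes were called higher and 2144 lower, *Lama5* lost its call (edgeR adjusted p = 0.166), and 5 of the 9 genes, *Lama3* among them, were called lower. The differences of the 6 log2 ratios kept their direction with 1 count added and with each library left out, where 3 libraries against 4 cannot give an exact p below 0.0571.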

Other observations

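Markers of other epidermal states were counted too, where 10.9% of all tested genes were called higher and 12.3% lower. Of 20 proliferation genes, 18 were higher and 0 lower in ft/ftMyD88-/-, with a median log2 fold change of 0.68. Among markers of differentiated keratinocytes, 1 was higher and 8 lower of 16 tested, with sums of 24179 to 29582 CPM across ft/ft libraries against 15167 to 19458 across ft/ftMyD88-/-, the higher call being lost without ft/ft replicate 1, 3 or 4 or ft/ftMyD88-/- replicate 1. Among markers of hyperproliferative keratinocytes, 2 were higher and 0 lower of 13 tested, with a median log2 fold change of 1.76. Their sums overlapped, at 3009 to 4248 CPM across ft/ft libraries against 3922 to 7025 across ft/ftMyD88-/-. Their higher calls ran from 0 to 7 across the alternatives (0 without ft/ft replicate 4, 7 without ft/ft replicate 2).

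For the hair follicle bulge, whose list takes 74.6% of its sum from *Krt15*, 3 were higher and 3 lower of 12 tested, with sums of 5388 to 6858 CPM across ft/ft libraries against 2939 to 3762 across ft/ftMyD88-/-. *Krt15* is also in the basal keratinocyte list, so the sums of these lists are not separate results. Among sebocyte markers, 0 were higher and 7 lower of 14 tested, with sums of 10601 to 12128 CPM across ft/ft libraries against 8030 to 10378 across ft/ftMyD88-/-, and 4 were lower without ft/ft replicate 4 or ft/ftMyD88-/- replicate 4 and 3 with library size alone. Among leukocyte markers, 6 were higher and 1 lower of 15 tested, with sums of 1164 to 1475 CPM across ft/ft libraries against 1354 to 1959 across ft/ftMyD88-/-, the lower call being lost without ft/ft replicate 3 or ft/ftMyD88-/- replicate 1 or 4. Among markers of lacrimal and conjunctival epithelium, 0 were higher and 3 lower of 11 tested, with sums of 1565 to 2996 CPM across ft/ft libraries against 1189 to 2345 across ft/ftMyD88-/-, with 1 lower without ft/ft replicate 1, 2 or 3 or ft/ftMyD88-/- replicate 1, 3 or 4 and 5 with the replicate block. Of the genes tested, 10.9% were called higher and 12.3% lower, against which these counts stand as a description.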
